A study of Mus musculus with 2 samples.

Results

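Ahr, which encodes the aryl hydrocarbon receptor, and Tiparp, a gene that this receptor is known to switch on, were followed in CD4 T cells from the colons of 12 mice. They are 2 of the 11971 genes in the deposited table of unique molecular identifiers (UMIs, a count of captured RNA molecules), and both were found there by symbol. Both were chosen by their higher counts in KO than in WT mice, as seen in earlier results of these data. Their KO against WT values are therefore given as a description, with no test. All recipients were Rag-/- mice, which make no T or B cells of their own, in an adoptive transfer model of colitis. The 6 KO recipients received BCL-6 deficient CD4+ T cells. The 6 WT recipients received cells described as naive or as CD4+ CD45RBhigh CD25-. The labels used here do not state how Bcl6 was deleted or in which cells, nor the age, sex or strain of the mice, nor how the KO cells were gated before transfer. Colonic TCRb+CD4+ cells were sorted, tagged with a hashtag antibody for each mouse and pooled into 1 single-cell library of 10x 5′ chemistry.

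The aryl hydrocarbon receptor is a transcription factor that binds small molecules from diet, microbes, tryptophan breakdown and pollutants. It waits in the cytoplasm with the chaperone HSP90 and p23 (Ptges3), and after binding a ligand it enters the nucleus, pairs with ARNT and binds DNA at a short motif, the xenobiotic response element. Among its known targets are the Cyp1 enzymes, the repressor Ahrr, which competes for ARNT, and Tiparp, a mono-ADP-ribosyltransferase of the PARP family that also restrains the receptor. In the gut, the receptor is known for its part in Th17 cells, in interleukin 22 production and in the upkeep of lymphoid cells.

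In GRCm38, with the GENCODE M21 annotation, Tiparp lies on the plus strand at chr3:65528410-65555518 and Ahr on the minus strand at chr12:35497974-35535038; both are protein-coding. The promoters of Tiparp and Ahrr, the 2 receptor targets whose values are described in most detail, are shown because they hold the core of the response element. The core is GCGTG, or CACGC when the site is on the opposite strand. The sequences are those of the RefSeq table for GRCm38.p6, from 250 bases before to 50 after the gene's start, written 5′ to 3′ on the gene's strand with each core in capitals; Tiparp is at chr3:65528197-65528496 on the plus strand and Ahrr at chr13:74292282-74292581 on the minus strand.
Tiparp: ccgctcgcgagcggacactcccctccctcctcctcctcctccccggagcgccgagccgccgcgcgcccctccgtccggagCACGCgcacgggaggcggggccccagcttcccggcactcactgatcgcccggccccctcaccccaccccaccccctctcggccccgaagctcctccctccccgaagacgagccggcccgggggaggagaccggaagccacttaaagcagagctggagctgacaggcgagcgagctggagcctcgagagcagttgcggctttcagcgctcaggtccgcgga
Ahrr: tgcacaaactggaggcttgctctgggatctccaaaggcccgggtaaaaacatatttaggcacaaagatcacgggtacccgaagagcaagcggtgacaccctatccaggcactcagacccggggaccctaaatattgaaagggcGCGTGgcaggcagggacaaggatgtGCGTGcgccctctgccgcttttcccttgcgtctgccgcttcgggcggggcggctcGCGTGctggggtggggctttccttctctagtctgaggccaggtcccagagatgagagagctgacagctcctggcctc
The Tiparp window held 1 core, 170 bases before the start, and the Ahrr window held 3, at 107, 82 and 27 bases before it. The windows of Gpr15 and Nfe2l2, listed genes described below, held 0. A core stood in 5 of 9 promoters of the receptor's gene battery, which includes Tiparp and Ahrr. It stood in 4 of 7 promoters of the genes tied to the receptor in T cells. Entpd1 and Kit enter this count more than once, and the Kit windows overlap and hold the same core. Maf, Ikzf3 and Il10 had no promoter in the table. A match is only a match of letters: the core was found on either strand in 32.4% of the 32851 promoters of the table and in 52.2% of the 9737 promoters of genes tested over all cells.

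In all, 57634998 UMIs were deposited for 18860 cells, of which 9708 came from KO and 9152 from WT mice. Each mouse gave 1409 to 1736 cells and 4252124 to 5523025 UMIs, and the median UMIs per cell were 2381 to 2997 in KO mice and 2864 to 3102.5 in WT mice. The authors' labels give recirculating, cytotoxic, Th17, cycling and regulatory cells; the clusters numbered 1 and 3 bear no such name beyond CD4, and appear here as unnamed 1 and unnamed 3. The gene Bcl6 itself was not lower in KO mice, at 65.8 to 91.3 CPM (UMIs of a gene per 1000000 UMIs of the mouse), than in WT mice, at 48.4 to 69.6 CPM. Since the deleted part of the gene is not stated and 5′ counts need not cover it, this does not check the labels, and every direction below refers to the labels as deposited. T cell markers (5 of 5 found) summed to 3490 to 4169 CPM in KO and 3203 to 3705 CPM in WT mice. Markers of B, myeloid, epithelial and NK cells were low over all cells. B cell markers (1 of 4 found) reached 5.55 CPM in KO and 24.6 CPM in WT mice. Myeloid markers (5 of 5) reached 11.5 CPM in KO and 11.1 CPM in WT mice. Epithelial markers (4 of 4) reached 11.2 CPM in KO and 22.9 CPM in WT mice. NK markers (1 of 2) reached 2.74 CPM in KO and 6.25 CPM in WT mice. In regulatory cells the B cell marker measured 0 to 316 CPM in KO and 86.7 to 154 CPM in WT mice. CD8 T cell markers (2 of 2) summed to 4.06 to 10.03 CPM in KO and 11.3 to 56.2 CPM in WT mice. Markers of type 3 innate lymphoid cells (3 of 3), a list that includes Il22, were not low. They summed to 58.8 to 435 CPM in KO and 250 to 1536 CPM in WT mice. The deposited genotype matched the hashtag table in all 18860 cells, and 0 barcodes were shared between mice.

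Both genes were detected across the sort. Ahr had 5243 UMIs in 3602 cells, 19.1% of all, with at most 11 in 1 cell. Tiparp had 5462 UMIs in 3642 cells, 19.3% of all, also with at most 11 in 1 cell. KO mice held 3282 of the Ahr UMIs and WT mice 1961, while for Tiparp KO mice held 4006 and WT mice 1456.

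Summed over all cells, Ahr stood higher in KO mice, in a narrow band. It measured 138, 122, 121, 106, 124 and 97.0 CPM in KO mice 1 to 6, and 55.9, 65.5, 78.6, 71.2, 57.7 and 68.0 CPM in WT mice 1 to 6. The lowest KO mouse was above the highest WT mouse. The mean was 118 ± 14.4 CPM in KO mice and 66.1 ± 8.52 CPM in WT mice (SD, n = 6 each), a log2 fold change of 0.79 ± 0.09 (standard error, edgeR). Over all cells, every KO mouse stood above every WT mouse for 4.41% of the 9861 genes tested, and 7.04% of genes were called higher and 7.21% lower in KO mice (edgeR adjusted p under 0.05). These shares are given as background only.

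Tiparp, the ADP-ribosyltransferase, differed more and varied far more among KO mice. It measured 178, 298, 121, 68.0, 145 and 70.8 CPM in KO mice 1 to 6, and 43.1, 50.9, 51.7, 45.4, 46.9 and 56.5 CPM in WT mice 1 to 6. KO mouse 2 was highest and KO mice 4 and 6 lowest among the KO mice, yet neither of these fell within the WT range. The mean was 147 ± 85.4 CPM in KO mice and 49.1 ± 4.90 CPM in WT mice (SD, n = 6 each), a log2 fold change of 1.54 ± 0.29. Without KO mice 1 and 2, left out after the data were seen, it was 1.00. In sums over all cells, a change in cluster makeup and a change of level within cells cannot be told apart. When every mouse was given the same mix of clusters, the log2 fold change on a log2(CPM + 2) scale was 0.55 for Ahr and 1.04 for Tiparp. Ahr then measured 102 to 132 CPM in KO mice and 67.7 to 89.9 CPM in WT mice, still without overlap. The share of all genes without overlap at this weighting was not counted. Tiparp then measured 65.6 to 235 CPM in KO mice and 42.8 to 66.1 CPM in WT mice, so that KO mouse 4 fell just inside the WT range.

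**Figure D1:**
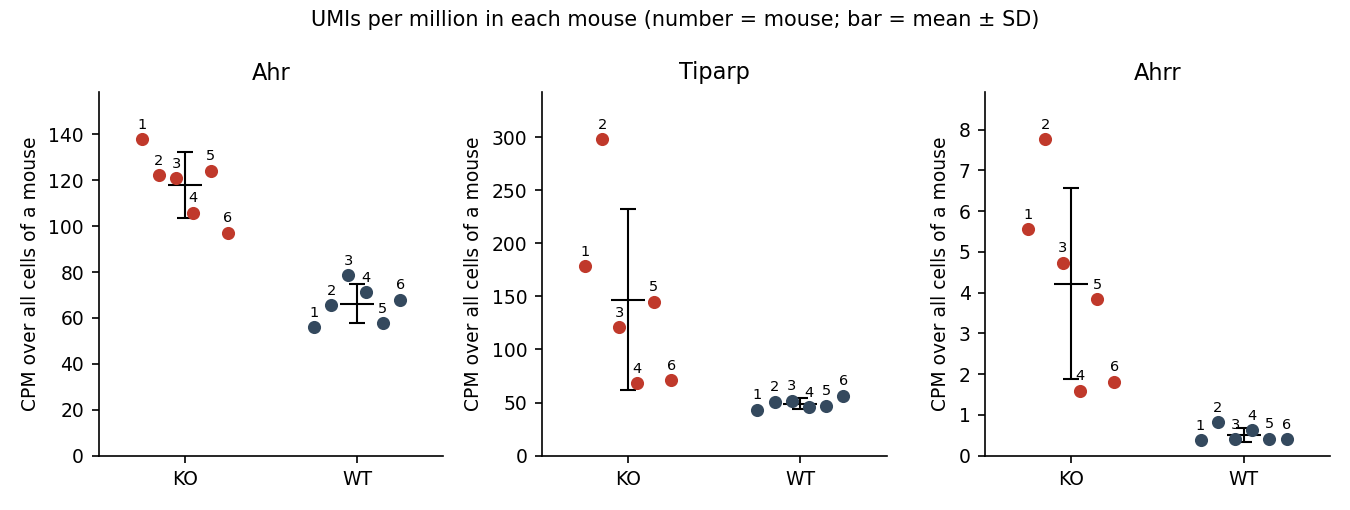
CPM of Ahr, Tiparp and Ahrr in each mouse, summed over all cells, with KO mice left of WT mice; numbered points are mice, and bars are the mean ± SD (n = 6 each). KO mice range over 97.0 to 138 CPM for Ahr and 68.0 to 298 CPM for Tiparp, and WT mice over 55.9 to 78.6 CPM for Ahr and 43.1 to 56.5 CPM for Tiparp.

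The cluster mix did differ between genotypes. Unnamed 1 held 272 to 714 cells in a KO mouse and 92 to 176 in a WT mouse, and cytotoxic cells numbered 51 to 216 in a KO mouse and 390 to 649 in a WT mouse. Th17 cells numbered 44 to 178 in a KO mouse and 137 to 391 in a WT mouse, with overlap. In WT mice, Ahr had its highest mean in unnamed 1 and its lowest in cytotoxic cells.

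Within clusters, the levels of each gene were without overlap between genotypes in 1 cluster, and it was not the same one for both. For Ahr it was cytotoxic cells, a CD4 population that carries granzymes. There it had a mean of 125 ± 46.8 CPM in KO mice, with a low of 63.4 (mouse 4), a median of 129 and a high of 189 (mouse 2), and 42.7 ± 10.98 CPM in WT mice, with a low of 29.3, a median of 44.3 and a high of 56.5. The groups did not overlap, which held for 1.71% of the 6601 genes tested in that cluster, and the log2 fold change was 1.42 ± 0.21. It rests on 229 Ahr UMIs in KO and 334 in WT mice. In the same cells, markers of B cells summed to 0 to 20.05 CPM in KO mice and 28.3 to 103 CPM in WT mice, and those of CD8 T cells to 22.2 to 44.6 CPM in KO and 35.2 to 172 CPM in WT mice. The cytotoxic markers (4 of 4 found: Gzmk, Eomes, Ccl5 and Nkg7) summed to 6928 to 12173 CPM in KO and 16932 to 20219 CPM in WT mice there. Their part in the Ahr difference was not tested.

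In unnamed 1, where Ahr was high in both genotypes, its groups overlapped. Ahr measured 140 ± 12.8 CPM in KO mice (126 to 161) and 122 ± 21.7 CPM in WT mice (87.5 to 147), a log2 fold change of 0.14 ± 0.11. WT mouse 3 was the low one, and without it the log2 fold change was 0.07. In unnamed 3, Ahr measured 141 ± 18.4 CPM in KO mice (115 to 167) and 112 ± 38.2 CPM in WT mice (74.6 to 183). Here the highest value was that of WT mouse 6, above every KO mouse, and the log2 fold change of 0.23 ± 0.16 was 0.50 without that mouse and 0.13 without WT mouse 5.

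Recirculating, Th17 and cycling cells lay between cytotoxic cells and unnamed 1 in the log2 fold change of Ahr. In Th17 cells, which make interleukin 17, it measured 100 ± 31.0 CPM in KO mice (59.3 to 133) and 55.4 ± 7.86 CPM in WT mice (45.4 to 64.6), and 5 of 6 KO mice were above the highest WT mouse (log2 fold change 0.69 ± 0.18). In cycling cells it measured 104 ± 25.4 CPM in KO mice (75.7 to 139) and 67.9 ± 16.7 CPM in WT mice (44.0 to 84.3; 0.53 ± 0.17). In recirculating cells it measured 91.3 ± 11.3 CPM in KO mice (77.9 to 108) and 69.2 ± 20.6 CPM in WT mice (52.2 to 106; 0.32 ± 0.14). WT mouse 3 held the high WT value there, and without it the log2 fold change was 0.50. The groups overlapped in all 3 clusters.

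Regulatory cells were too few for a firm value. Only 5 KO mice and 3 WT mice had at least 20 of them, with 62 Ahr UMIs in the KO and 15 in the WT mice. Ahr measured 102 ± 48.1 CPM in KO mice (n = 5) and 59.3 ± 38.1 CPM in WT mice (n = 3), with overlap, and the log2 fold change of 0.74 ± 0.52 was 0.35 without WT mouse 1 and 1.21 without WT mouse 4.

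For Tiparp the groups were without overlap in unnamed 1. In unnamed 1 it had a mean of 197 ± 91.5 CPM in KO mice, with a low of 89.6 (mouse 4), a median of 180 and a high of 358 (mouse 2), and 64.1 ± 16.7 CPM in WT mice, with a low of 42.7, a median of 72.3 and a high of 77.3. The groups did not overlap, as for 1.58% of the 5933 genes tested there, and the log2 fold change was 1.62 ± 0.28, from 1774 UMIs in KO and 141 in WT mice. In cytotoxic cells it measured 54.1 ± 24.8 CPM in KO mice (34.1 to 94.6) and 31.5 ± 2.88 CPM in WT mice (29.0 to 36.1). Although 4 of 6 KO mice exceeded the highest WT mouse, the groups overlapped, and the log2 fold change of 0.46 ± 0.19 was 0.25 without KO mice 1 and 2.

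In the remaining clusters KO mouse 2 again had the highest Tiparp level in each. It measured 118 ± 73.3 CPM in KO and 49.6 ± 7.48 CPM in WT mice in Th17 cells (log2 fold change 1.01 ± 0.26), and 125 ± 73.3 CPM in KO and 46.5 ± 17.6 CPM in WT mice in cycling cells (1.28 ± 0.32), where 5 of 6 KO mice were above the highest WT mouse in each cluster. It measured 156 ± 85.2 CPM in KO and 85.2 ± 34.8 CPM in WT mice in unnamed 3 (0.91 ± 0.28), and 104 ± 55.2 CPM in KO and 53.5 ± 10.7 CPM in WT mice in recirculating cells (0.66 ± 0.21), with 4 of 6 KO mice above. In regulatory cells it measured 138 ± 67.5 CPM in KO mice (n = 5, 96 UMIs) and 43.4 ± 33.1 CPM in WT mice (n = 3, 12 UMIs; 1.65 ± 0.52), with 1.18 without WT mouse 1 and 2.47 without WT mouse 6. Leaving out KO mice 1 and 2 gave 0.67 in cycling cells, 0.41 in recirculating cells and 0.47 in unnamed 3, and leaving out KO mouse 2 alone gave 0.58 in unnamed 3. Both genes passed the filter on low counts in every cluster.

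**Figure D2:**
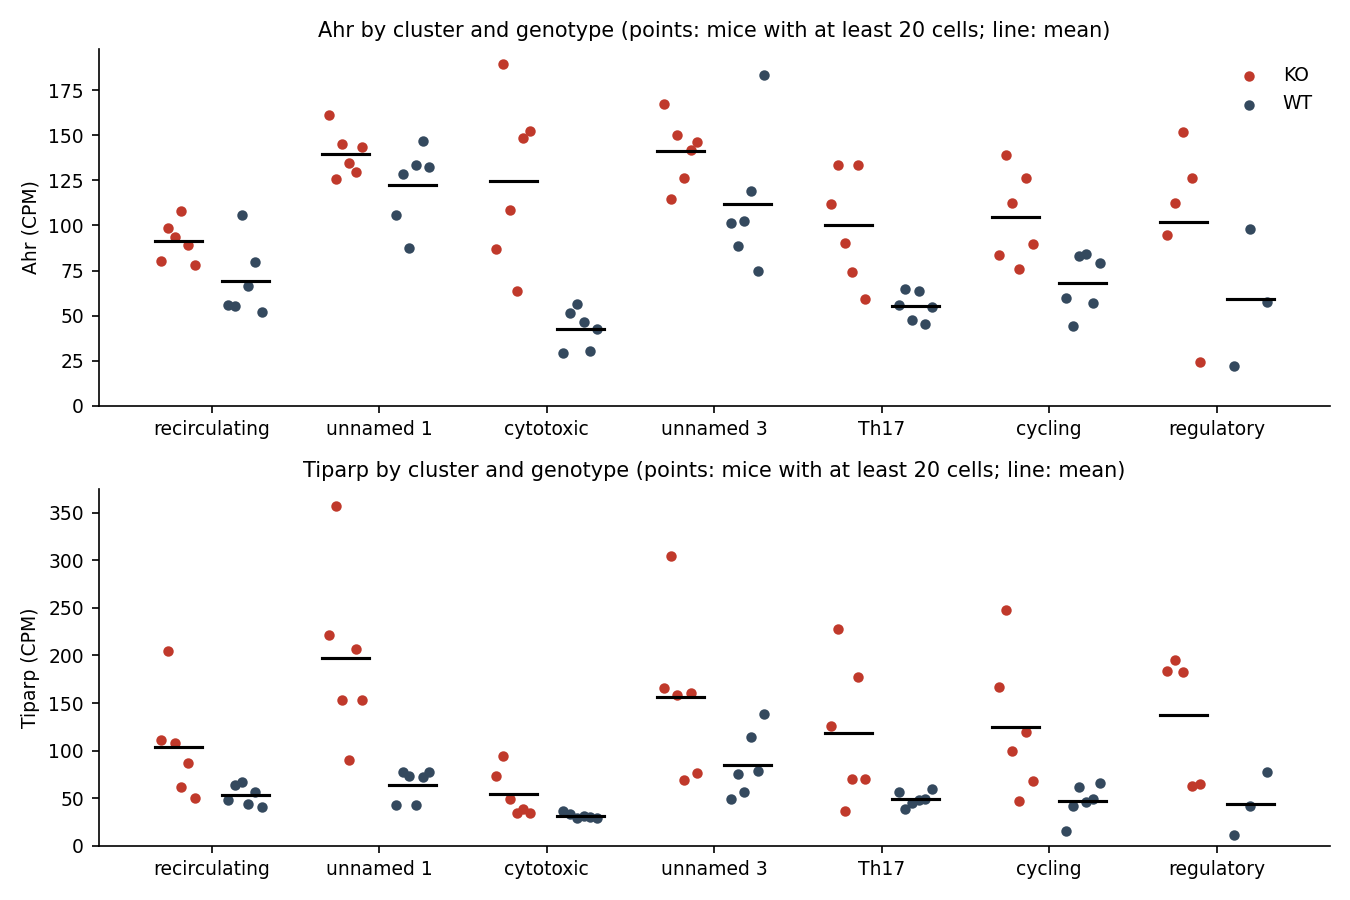
CPM of Ahr and Tiparp by cluster, with KO mice left of WT mice in each cluster; points are mice with at least 20 cells in the cluster and lines are means. The groups are apart for Ahr in cytotoxic cells and for Tiparp in unnamed 1, and overlap in the other clusters.

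The order of the clusters by mean Ahr level was, in KO mice, unnamed 3, unnamed 1, cytotoxic, cycling, regulatory, Th17 and recirculating cells. No neighbours in that order differed by more than the SD of the within-mouse difference. In WT mice it was unnamed 1, unnamed 3, recirculating, cycling, regulatory, Th17 and cytotoxic cells, and only the last step exceeded its spread, with Th17 above cytotoxic cells in 5 of 6 WT mice. For Tiparp the order in KO mice was unnamed 1, unnamed 3, regulatory, cycling, Th17, recirculating and cytotoxic cells. The first and the last steps exceeded their spread, with unnamed 1 above unnamed 3 in 5 of 6 mice and recirculating above cytotoxic cells in 6 of 6. In WT mice the order was unnamed 3, unnamed 1, recirculating, Th17, cycling, regulatory and cytotoxic cells, with no step beyond its spread. Cytotoxic cells were lowest for Tiparp in both genotypes.

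The KO against WT difference in a cluster can also be set against that in recirculating cells of the same mice, for the 5 clusters in which every mouse had at least 20 cells. These values come from the contrast that chose the genes, so they are a description with no p, and a difference in effect between clusters is not shown by them. For Ahr, cytotoxic cells stood 0.37 from recirculating cells in KO mice and -0.64 from them in WT mice on the log2 scale, a difference of 1.02 ± 0.30 (standard error, limma). For Tiparp, unnamed 1 stood 0.94 from recirculating cells in KO mice and 0.25 from them in WT mice, a difference of 0.70 ± 0.22. The other differences in the effect on Ahr were 0.35 in Th17 cells, 0.17 in cycling cells, -0.05 in unnamed 3 and -0.22 in unnamed 1. Those in the effect on Tiparp were 0.16 in Th17 cells, 0.45 in cycling cells, -0.05 in unnamed 3 and -0.17 in cytotoxic cells. Their standard errors were 0.18 to 0.36.

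**Figure D3:**
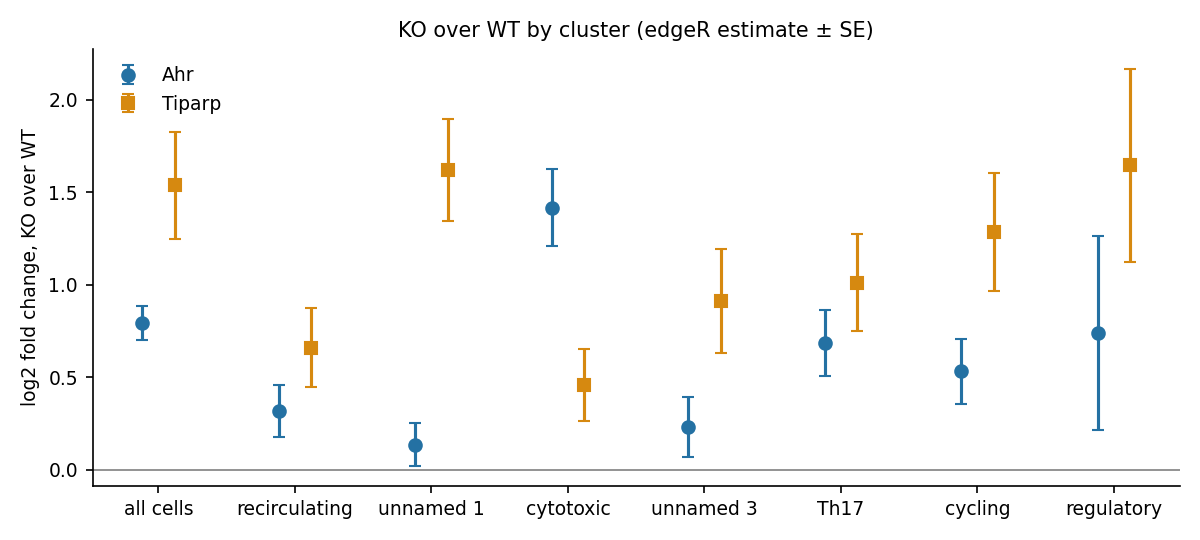
Log2 fold change (KO over WT) of Ahr and Tiparp over all cells and in each cluster, with the standard error from edgeR. Ahr is at 1.42 in cytotoxic cells and 0.14 in unnamed 1, and Tiparp at 0.46 and 1.62 in the same clusters.

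Depth was made equal before detection was compared across cells. The UMIs of a cell were drawn down to 1500, and 491 KO and 407 WT cells below that depth were left out. Ahr was then detected in 14.2% ± 1.52 of cells in KO mice (12.1% to 15.5%) and 8.07% ± 0.996 in WT mice (6.74% to 9.24%). Tiparp was detected in 16.7% ± 8.46 of cells in KO mice (8.55% to 31.8%) and 6.56% ± 0.913 in WT mice (5.41% to 7.86%; SD, n = 6 each). Neither gene's shares overlapped between genotypes, but how often this holds among all genes was not counted. Without thinning the shares were 22.9% in KO and 15.1% in WT mice for Ahr, and 25.5% in KO and 12.5% in WT mice for Tiparp.

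Shares within a cluster are given for the 2 pairs of gene and cluster without overlap in level. Among cytotoxic cells, 15.2% ± 4.78 had an Ahr UMI in KO mice and 5.21% ± 1.50 in WT mice, without overlap. Among unnamed 1 cells, 21.8% ± 9.13 had a Tiparp UMI in KO mice and 8.90% ± 2.55 in WT mice, also without overlap. For shares within a cluster, too, the overlap of other genes was not counted. Unthinned, these were 21.0% in KO and 8.48% in WT mice for Ahr, and 32.1% in KO and 14.1% in WT mice for Tiparp. Drawn down to 500 UMIs, both pairs of groups overlapped. Unthinned, Ahr in Th17 cells was also without overlap, at 16.9% to 28.2% in KO and 13.9% to 16.6% in WT mice, but at 1500 UMIs it overlapped. The median depth was 2206 UMIs in KO and 2468 in WT cytotoxic cells, and 2668 in KO and 2863 in WT unnamed 1 cells. No cluster of this sort is known to lack either gene, so the level that free RNA gives was not measured; the lowest thinned share was 4.43%, for Tiparp in WT cytotoxic cells.

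Cells with both genes were counted against the number that the separate shares give. At 1500 UMIs, 254 cells of KO mice held both, against 233 given by the shares within each mouse and cluster, a ratio of 1.13 ± 0.144 over mice (0.976 to 1.36). In WT mice 74 cells held both, against 51.6, a ratio of 1.41 ± 0.237 (1.10 to 1.67). Without thinning the ratios were 1.19 in KO and 1.39 in WT mice. At 500 UMIs, with 44 such cells in KO and 16 in WT mice, they were 1.30 ± 0.720 in KO mice (0.348 to 2.52) and 2.44 ± 1.70 in WT mice (0 to 4.53), with mice on both sides of 1 in each genotype. This is a description of cells that share a library and, within a cluster, may differ in total RNA.

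Within a genotype, no correlation of Ahr with Tiparp across mice passed the correction. Over all cells, r was lower without the mice farthest from the median of Ahr. Leaving these out also narrows the range of Ahr, so it cannot show that r rests on them. Over the 6 KO mice, Pearson's r of the log2 CPM was 0.77 (exact permutation p = 0.0667, adjusted p = 0.206 over the family of 4) and Spearman's rho 0.77 (exact permutation p = 0.103, adjusted p = 0.206). Without KO mice 4 and 6, which were farthest from the median of Ahr, r was 0.06. Over the 6 WT mice, r was 0.55 (exact permutation p = 0.258, adjusted p = 0.297) and rho 0.54 (exact permutation p = 0.297, adjusted p = 0.297), and r was 0.17 without WT mice 1 and 3. With clusters weighted alike, r was 0.87 in KO and 0.82 in WT mice (exact permutation, adjusted p = 0.0778 for each). It was then 0.45 without KO mice 2 and 4, and -0.70 without WT mice 1 and 6. Without cycling cells, r was 0.66 in KO mice and 0.46 in WT mice (exact permutation, adjusted p = 0.350 and 0.470). It was then 0.64 without KO mice 1 and 6, and -0.31 without WT mice 1 and 5.

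Clonal expansion, which the choice of genes did not use, went with a lower Ahr level. Cells of clones with a deposited size of at least 3 (11043 cells) were compared with cells of clones of 1 (3254 cells) within each mouse, with the same cluster mix in both. Only clusters with at least 10 cells of each kind in a mouse were used, 5 to 7 clusters a mouse. The cell counts given include cells of the clusters left out. Ahr was lower in expanded cells in 11 of 12 mice, at 85.0 ± 29.7 CPM in expanded and 110 ± 40.4 CPM in single cells, a log2 difference of -0.35 ± 0.29 (SD over mice; exact sign permutation p = 0.00244, adjusted p = 0.0146 over 6 comparisons). In KO mice alone it was 111 ± 13.8 CPM in expanded and 143 ± 20.5 CPM in single cells, lower in 6 of 6 mice (exact sign permutation p = 0.0313, the smallest that 6 mice can give, adjusted p = 0.0938). In WT mice alone it was 59.0 ± 11.2 CPM in expanded and 76.5 ± 23.2 CPM in single cells, lower in 5 of 6 mice (exact sign permutation p = 0.0938, adjusted p = 0.188). Neither genotype alone passed the correction, and whether the gap differs between genotypes was not tested.

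Tiparp gave no such call. Over all 12 mice it was lower in expanded cells in 9, with a log2 difference of -0.11 ± 0.37 (exact sign permutation p = 0.328, adjusted p = 0.393). The difference was -0.27 in KO mice (exact sign permutation p = 0.125, adjusted p = 0.188) and 0.05 in WT mice (exact sign permutation p = 0.844). Median UMIs per cell were 2353.5 to 3171 in expanded and 2460 to 3123 in single cells of a mouse, and median doublet scores were 0.0476 to 0.0814 in expanded and 0.0462 to 0.0787 in single cells. The deposited clone size equalled the number of that clone's cells in the mouse for 5830 of the 16175 cells with a clonotype; with clones counted in the table instead, Ahr was lower in expanded cells in 12 of 12 mice (-0.36).

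**Figure D4:**
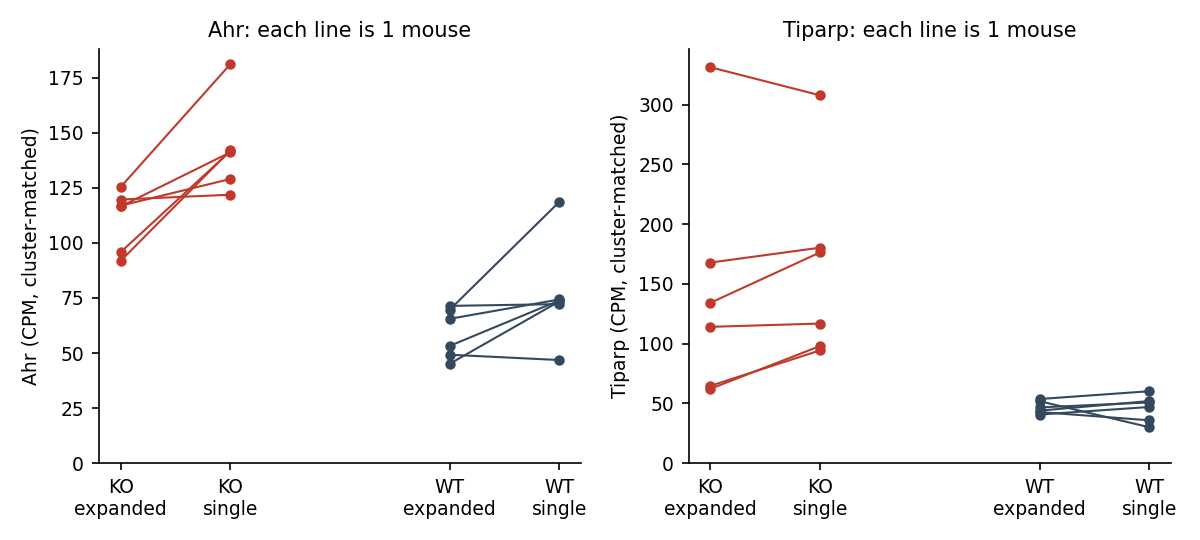
CPM of Ahr and Tiparp in cells of expanded clones (left) and of clones of 1 cell (right); each line is a mouse, with clusters given the same weight in both arms. Ahr is lower in expanded cells in 11 of 12 mice and Tiparp in 9 of 12.

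None of the receptor's partners was called higher. Of the 6 others of the receptor complex that were tested over all cells, 0 rose and 2 fell, against 14.2% of all 9861 genes called in either direction. The 2 that fell were the HSP90 chaperone genes, which measured 2015 ± 127 CPM in KO and 2323 ± 186 CPM in WT mice for Hsp90ab1 (log2 fold change -0.24 ± 0.05, edgeR adjusted p = 0.00472) and 596 ± 50.4 CPM in KO and 708 ± 118 CPM in WT mice for Hsp90aa1 (-0.29 ± 0.09, edgeR adjusted p = 0.0400). Leaving out any of KO mice 1 to 5 or WT mice 3 to 5 lost the call of Hsp90aa1 (adjusted p 0.0544 to 0.0819), and weighting clusters alike lost that of Hsp90ab1 (adjusted p = 0.0926). The median over the 6 was 0.06, and that of all genes -0.00. Arnt, the DNA-binding partner, had 38.5 ± 5.08 CPM in KO and 31.4 ± 2.79 CPM in WT mice (0.25, edgeR adjusted p = 0.0702). Arnt2 was at 0.60 (edgeR adjusted p = 0.054) and Ptges3 at 0.11.

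Of the classical targets of the receptor, the gene battery of xenobiotic metabolism, few could be read. The genes Cyp1a1, Cyp1a2, Cyp1b1, Aldh3a1, Ugt1a6a and Gsta1 are not analysed here, and Nqo1 had 23 UMIs in KO and 7 in WT mice. Nfe2l2, a regulator of the oxidative stress response, was the 1 other member tested, and it rose, with 104 ± 15.6 CPM in KO and 74.0 ± 6.96 CPM in WT mice (0.44 ± 0.09, edgeR adjusted p = 0.00492). Ahrr, the repressor whose promoter is printed above, had too few UMIs for the filter and was named after its values were seen. Its UMIs were 115 in KO and 15 in WT mice, or 7 to 33 (median 19.5) in a KO mouse and 2 to 4 (median 2) in a WT mouse. No KO mouse overlapped a WT mouse, and KO mice 2 and 1 were highest, as for Tiparp. Among the 9861 genes that passed the filter, 4.41% had every KO mouse above every WT mouse in CPM. With no filter on low counts the log2 fold change of Ahrr was 2.95 ± 0.44 (standard error, edgeR). With clusters weighted alike it was 0.95 on the log2(CPM + 2) scale. Since Ahrr was named for its values in this same contrast, these are a description with no p. Unnamed 1 held more of its UMIs than any other cluster, 55 in KO and 7 in WT mice, followed by unnamed 3 with 25 in KO and 1 in WT mice and recirculating cells with 15 in KO and 1 in WT mice.

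Genes tied to the receptor in T cells went both ways. Of 8, all tested, 3 rose and 2 fell, with a median of 0.52, while 7.04% of all genes were called higher and 7.21% lower. Entpd1 (CD39), an ectoenzyme that breaks down extracellular ATP, rose, with 24.4 ± 3.36 CPM in KO and 14.9 ± 3.13 CPM in WT mice (0.67 ± 0.14, edgeR adjusted p = 0.00347). Maf, a transcription factor that promotes interleukin 10, rose as well, with 207 ± 43.5 CPM in KO and 134 ± 20.5 CPM in WT mice (0.58 ± 0.13, edgeR adjusted p = 0.00552), but with clusters weighted alike its adjusted p was 0.0638. Gpr15, a homing receptor for the large intestine, measured 9.96 to 61.6 CPM in KO and 4.61 to 12.9 CPM in WT mice (1.49 ± 0.42, edgeR adjusted p = 0.0239). KO mice 1 and 2 were its highest, as for Tiparp, and it was not called without KO mouse 1 or 2 or WT mouse 1 or 3 (adjusted p 0.0517 to 0.0634) or with clusters weighted alike (0.44, adjusted p = 0.369).

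Il22, a cytokine that acts on the gut epithelium, fell, with 49.2 to 418 CPM in KO and 240 to 1500 CPM in WT mice (-1.61 ± 0.43, edgeR adjusted p = 0.0197). It was not called without WT mouse 6 (-1.10, adjusted p = 0.0502), and with clusters weighted alike it was at -0.13 (adjusted p = 0.827). Within clusters it was called in recirculating cells (-2.19, adjusted p = 0.000771), where 3.3% of genes were called lower. In the other clusters where Il22 was tested it was not called. It was at 0.06 in Th17 cells, 1.05 in unnamed 1 and -0.65 in cycling cells (edgeR adjusted p = 0.969, 0.472 and 0.72). Ikzf3 (Aiolos), a zinc finger factor, was at -0.24 over all cells (edgeR adjusted p = 0.0436) and 0.95 in Th17 cells (adjusted p = 0.00209), where 2.52% of genes were called higher. With clusters weighted alike it was at 0.08, and its call was lost without any of 9 of the 12 mice (KO mice 1, 2, 3 and 5 and WT mice 1 to 5; adjusted p 0.0536 to 0.0967). Il10, Il21 and Kit did not pass, at 0.81, 0.45 and 0.04.

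Among the 16 PARP genes Tiparp, which was chosen by its rise in this contrast, had the highest log2 fold change, 1.54. Of the 15 other PARP genes, all tested, 4 rose and 0 fell, with a median of 0.09, while 7.04% of all genes were called higher and 7.21% lower. Parp10, a mono-ADP-ribosyltransferase, had 28.4 ± 1.31 CPM in KO and 22.4 ± 2.05 CPM in WT mice (0.31 ± 0.07, edgeR adjusted p = 0.00982), but was not called with clusters weighted alike (adjusted p = 0.0966) or equal cells per mouse (0.0503). Parp16, an enzyme of the endoplasmic reticulum membrane, had 6.0 ± 2.53 CPM in KO and 2.84 ± 0.638 CPM in WT mice (1.02 ± 0.27, edgeR adjusted p = 0.0168), and adjusted p = 0.131 without KO mice 1 and 2. Parp8 (0.43 ± 0.12, edgeR adjusted p = 0.0263) and Parp4 (0.26 ± 0.08, edgeR adjusted p = 0.0479) lost their calls without any 1 of 7 mice for Parp8 (KO mice 1 to 3 and WT mice 3 to 6; adjusted p 0.0508 to 0.0611) and of 10 for Parp4 (KO mice 1 to 5 and WT mice 2 to 6; 0.0605 to 0.105).

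Of the 11 genes of ligand metabolism and uptake, 2 passed the filter and 1 was called, higher in KO mice, as were 7.04% of all genes. Slc3a2, a subunit of the transporter that carries tryptophan and kynurenine, rose, with 551 ± 36.9 CPM in KO and 479 ± 26.2 CPM in WT mice (0.16 ± 0.05, edgeR adjusted p = 0.0469), but its call was lost without any 1 of 8 mice (KO mice 1, 2, 3 and 5 and WT mice 1 to 4; adjusted p 0.0716 to 0.115). Slc7a5, the other subunit, was at 0.20 (edgeR adjusted p = 0.406). Of the enzymes that make or break down ligands, Ido1 had 8 UMIs in KO and 13 in WT mice, and Il4i1 had 16 in KO and 10 in WT mice.

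Genes of the Th17 program, in which the receptor is known to act, were called only downward over all cells. Th17 cells themselves numbered 44 to 178 in a KO mouse and 137 to 391 in a WT mouse. In sums over all cells, this and a lower level within cells cannot be told apart. Of 12 genes, all tested, 0 rose and 6 fell, with a median of -0.74, while 7.04% of all genes were called higher and 7.21% lower. Ccr6, a chemokine receptor of Th17 cells, fell, with 0.427 to 2.17 CPM in KO and 2.32 to 14.3 CPM in WT mice (-2.69 ± 0.40, edgeR adjusted p = 0.00029). Its UMIs were 35 in KO and 237 in WT mice, and it was not tested within any cluster. It passed the filter on low counts through its level in WT mice, so its call could only be a fall. Batf, a transcription factor needed for Th17 cells, fell, with 240 ± 48.6 CPM in KO and 402 ± 58.8 CPM in WT mice (-0.78 ± 0.12, edgeR adjusted p = 0.000488), and was called lower in recirculating, unnamed 1, cytotoxic, unnamed 3 and cycling cells, in which 3.3%, 2.9%, 1.58%, 5.33% and 2.92% of all genes were called lower. Rora, a nuclear receptor of Th17 cells, fell by 0.23 on the log2 scale (edgeR adjusted p = 0.00275) and was called lower in the same clusters except cycling cells. Il1r1, a receptor for interleukin 1, fell (-1.45, edgeR adjusted p = 0.00399) but lost its call with clusters weighted alike (adjusted p = 0.0888). Within Th17 cells, where Ahr was at 0.69 and Tiparp at 1.01, 1 of 11 genes tested rose (Ccl20, a chemokine, 2.81, edgeR adjusted p = 0.000495) and 0 fell, against 2.52% of all genes called higher and 2.57% lower there. The median log2 fold change of the 11 was 0.19 in these cells.

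Over the 6 lists together, 60 genes other than Ahr and Tiparp were listed and 43 were tested. Of these, 18 were called (41.9%, against 14.2% of all genes), 9 in each direction, with a median of 0.04. The lists share members (Ahrr and Il22 stand in 2 each) and were chosen with results of these data known, so the share is not independent evidence.

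**Figure D5:**
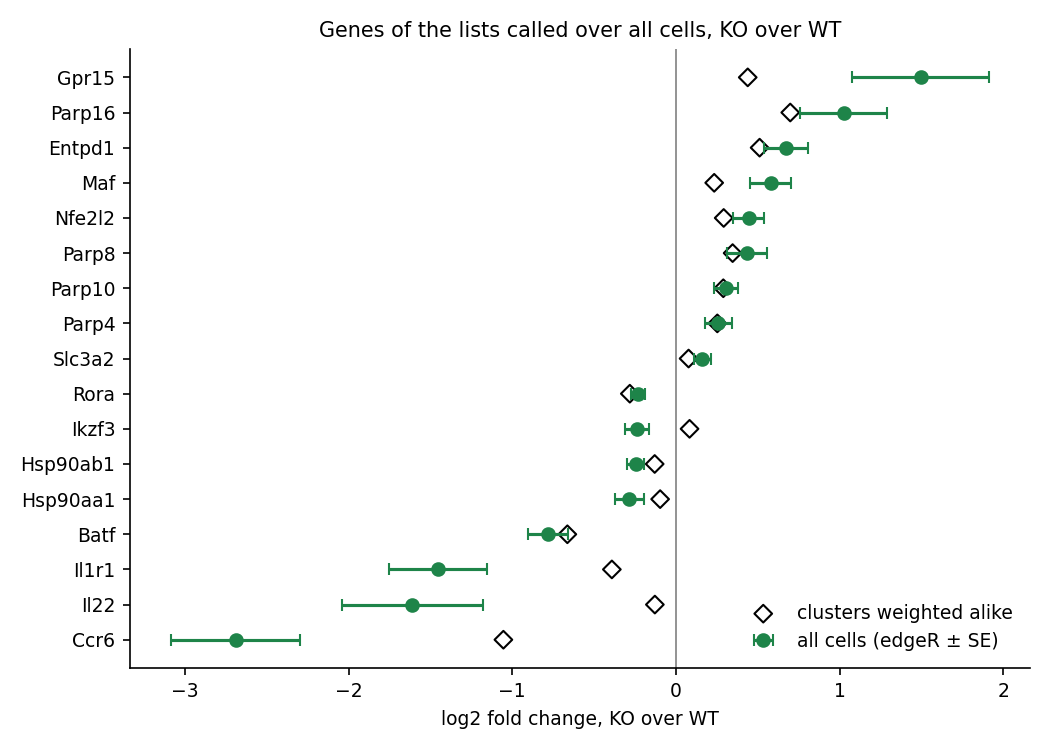
Log2 fold change (KO over WT, edgeR, with standard error) of called list genes over all cells; open diamonds give the value with clusters weighted alike, on a log2(CPM + 2) scale. Il22 moves to -0.13 and Gpr15 to 0.44, while Batf stays at -0.66 and Entpd1 at 0.51.

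Across the 14 groups of genotype by cluster, the 5 genes whose mean levels ran most like Ahr were Asb2 (Pearson's r 0.85), Dopey1 (0.82), Dnajc8 (0.82), Vav3 (0.81) and Slc9a9 (0.80), out of 5871 genes compared. Those most like Tiparp were Chrac1 (0.87), Cd44 (0.84), Exoc3 (0.83), Osbpl9 (0.83) and Lmna (0.82). Ahr and Tiparp correlated with each other at 0.78, rank 9 of the genes for Ahr and rank 18 for Tiparp. These are descriptions: the groups share mice and 1 library, and the means of both genotypes enter each value.

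Both genes overlap another annotated gene. The lincRNA gene Gm48236 lies on the plus strand over 618 bases of the 5′ end of Ahr, and a pseudogene on the minus strand, not analysed here, covers 970 bases of Tiparp. The sources used here do not state whether strand entered the counting, so it is not known from them whether reads of such pairs were kept apart. Gm48236 had 461 UMIs in KO and 218 in WT mice, 63 to 89 in a KO mouse and 31 to 41 in a WT mouse, without overlap. Over all cells, every KO mouse stood above every WT mouse in CPM for 4.41% of the 9861 genes tested.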

How the data were processed

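The submitters' processing notes name Cell Ranger 3.1.0, Seurat 3.1.5 and the builds GRCm38 and mm10. The authors deposited raw UMI counts per gene and cell, and an annotation that assigns each cell to a mouse, genotype and cluster and, where found, a clonotype. The deposited annotation also has each cell's mitochondrial percent and doublet score (highest 0.354). How cells were filtered is not stated in the sources used here, and no doublet caller was run.

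The mouse was the replicate (hashtags 1 to 6 KO, 7 to 12 WT, here numbered 1 to 6 in each genotype). The labels do not say whether recipients had separate donors, so p-values measure the spread between these mice. The counts of a mouse were added up over all its cells, and over the cells of each cluster with at least 20. CPM divides by the summed UMIs; no interval per value is given, and the SD covers counting error and spread together. The test was edgeR 4.0.16 under R 4.3.3 (quasi-likelihood, TMM, filterByExpr, Benjamini-Hochberg, called at adjusted p under 0.05). Differences between clusters, with no p, used limma 3.58.1 on log2 CPM with a prior count of 2. Correlations and clones used exact permutation, two-sided; clones were compared on log2(CPM + 1). Weighting clusters alike gives a cluster the same weight in every mouse, its share of all cells. The edgeR and limma fits were run on simulated data with known changes, and the permutation tests were not. Likeness took genes whose mean log2 CPM reached 4.

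The genes and lists were chosen with earlier results of these data known. Named genes were, for each list, up to 4 called with the smallest p and those called in at least 4 clusters. Ahrr, Nqo1, Gm48236, Bcl6, Ikzf3, Parp4, Ccl20 and uncalled list genes were named after their values were seen. Single values of some listed genes are not reported here, though the lists' counts include them. Alternatives were DESeq2 1.42.0 and its size factors, no filter, 50 cells per mouse, equal cells, no cycling cells, other clone sizes and prior counts, and each mouse left out.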

Additional observations from a re-analysis of the deposited data

How the results depend on the processing

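Over all cells, Ahr kept its direction in all 20 alternatives (log2 fold change 0.55 to 0.85) and moved beyond its spread in 1, to 0.55 with clusters weighted alike. Tiparp kept its direction in all 20 (1.00 to 1.69). The 1405 genes called over all cells became 770 without KO mice 1 and 2, an alternative chosen after seeing the data, and 1073 to 1867 with 1 mouse left out. The 18 list genes called became 10 without KO mice 1 and 2, 8 with clusters weighted alike and 12 to 20 with 1 mouse left out. Batf, Ccr6, Rora, Entpd1 and Nfe2l2 kept their calls in every alternative run. Ikzf3 turned to 0.083 with clusters weighted alike. The small differences of effect against recirculating cells changed sign: with 1 mouse left out they ran from -0.20 to 0.17 for Ahr and from -0.21 to 0.18 for Tiparp in unnamed 3, and from -0.025 to 0.48 for Tiparp in Th17 cells. Those of Ahr in cytotoxic cells (0.88 to 1.24) and of Tiparp in unnamed 1 (0.57 to 0.83) kept theirs. The Tiparp difference between expanded and single cells in WT mice was -0.086 without cluster weights and -0.0080 with clones counted in the table; that of Ahr over all mice was -0.48 to -0.36 (adjusted p 0.00293 to 0.0146). Thinning to 500 UMIs or none moved the KO minus WT share of cells with Ahr to 2.25 or 7.84 percentage points. The cause of these changes was not tested. Leaving out cells with a UMI of a B, myeloid, epithelial or NK marker (489 KO, 900 WT cells), added after seeing the data, gave 0.77 for Ahr and 1.53 for Tiparp. A minimum of 50 cells could not be run in regulatory cells, for lack of WT mice. No paired analysis was possible because the deposited hashtags run from 1 to 12 and KO and WT mice share no number. Regulatory cells and Ahrr rest on few UMIs. No value of the 30 groups of mice examined stood apart by Dixon's test.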
